A study of Homo sapiens with 12 samples.

Results

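The myeloma line MM.1R was compared with its parent MM.1S, each cultured by itself, on 4 of the 12 arrays of the series (2 per line), chosen by their titles. MM.1R is a derivative of MM.1S that resists dexamethasone, a synthetic glucocorticoid that kills many myeloma cells. The MM.1R alone and MM.1S alone cells both carried green fluorescent protein (GFP) as a stable marker and had spent 24 hours in culture without stromal cells. The same lines after 24 hours with HS-5 cells (stromal, from human marrow) and sorting for GFP gave another 2 arrays each (MM.1R in coculture and MM.1S in coculture). These 4 arrays served to measure the difference between the lines a further time, on other arrays. Same-numbered arrays of a line deviated together across the conditions, with correlations of their deviations of 0.642 for MM.1R and 0.487 for MM.1S, and whether the conditions share a source of variation was not tested. No drug treatment is named for any of these groups. Each line was followed in a culture per condition and the duplicate arrays are described as technical, so every p-value below measures only the spread between duplicate arrays, and differences between separate cultures of a line were not measured.

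The glucocorticoid receptor, encoded by NR3C1, is a transcription factor that waits in the cytoplasm in a complex with HSP90 and its partner chaperones. Hormone binding sends it to the nucleus, where it induces genes such as TSC22D3 and FKBP5 and, in lymphoid and plasma cells, can start apoptosis through BCL2-family proteins. Loss or lowering of the receptor is a known route to glucocorticoid resistance in lymphoid malignancies.

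Expression is given as the deposited intensity of a probe set, a group of short probes for a transcript, on a linear scale. Differences are log2(intensity + 5) of MM.1R minus MM.1S, each gene is represented by its brightest tested probe set, and a gene is called changed at an adjusted p under 0.05 (limma, Benjamini-Hochberg over 12835 genes). Each SE and p-value pools the spread between duplicates over all groups of the series, also those of another myeloma line, INA-6. All 10 plasma cell markers lay above the array median on all 4 arrays, with a summed intensity of 22944 and 23755 in MM.1R alone, against 15688 and 15742 in MM.1S alone. Of the 31 stromal markers on the array, 17 lay above the array median on each MM.1R alone array, against 18 and 17 in MM.1S alone, and their summed intensity was 1435 and 1614 in MM.1R alone, against 1547 and 1730 in MM.1S alone. After coculture that sum was 35263 and 35554 in MM.1R, against 21080 and 20558 in MM.1S. The ratio of the ACTB 3′ to 5′ control probe sets, which rises when RNA is degraded or its copying stops early, was 30.6 and 32.2 in MM.1R alone, against 22.7 and 22.04 in MM.1S alone. In coculture it was 5.01 and 5.41 in MM.1R, against 5.24 and 4.97 in MM.1S. The bacterial spike-in bioB averaged 531 and 555 in MM.1R alone, against 1908 and 1756 in MM.1S alone. The 3′ to 5′ ratio of GAPDH was 6.44 and 6.59 in MM.1R alone, against 6.22 and 5.76 in MM.1S alone. In coculture it was 1.72 and 1.70 in MM.1R, against 1.91 and 1.86 in MM.1S. All 4 arrays alone thus carried a stronger 3′ bias than the coculture arrays. The lines cultured alone differed in the ACTB ratio and the spike-in level, and less in the GAPDH ratio.

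NR3C1 was lower in MM.1R. Its brightest probe set read 506 and 486 in MM.1R alone, against 915 and 1026 in MM.1S alone. Both MM.1R arrays lay well below both MM.1S arrays, a log2 difference of -0.96 (SE 0.14, adjusted p = 0.00435, limma). The other probe sets showed the same order. Another probe set read 227 and 168 in MM.1R alone, against 376 and 492 in MM.1S alone. A further probe set read 346 and 342 in MM.1R alone, against 483 and 552 in MM.1S alone. Of the dimmer ones, the first read 41.9 and 48.5 in MM.1R alone, against 111 and 116 in MM.1S alone, and the other read 65.2 and 40.7 in MM.1R alone, against 87.5 and 186 in MM.1S alone. All 5 probe sets were lower in MM.1R without overlap of the arrays, and the level in MM.1S alone was 1.5 to 2.36 times that in MM.1R alone. The call held without each array in turn, with an adjusted p between 0.0251 and 0.0453.

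The coculture arrays gave the same order for NR3C1. The brightest probe set read 558 and 498 in MM.1R in coculture, against 934 and 953 in MM.1S in coculture, a log2 difference of -0.83. This did not pass the threshold over all genes (limma adjusted p = 0.196). All 5 probe sets were again lower without overlap. The difference between the lines did not itself differ between culture alone and coculture beyond the spread of the duplicates (log2 -0.13, SE 0.19, adjusted p = 0.87, limma interaction term).

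**Figure D1:**
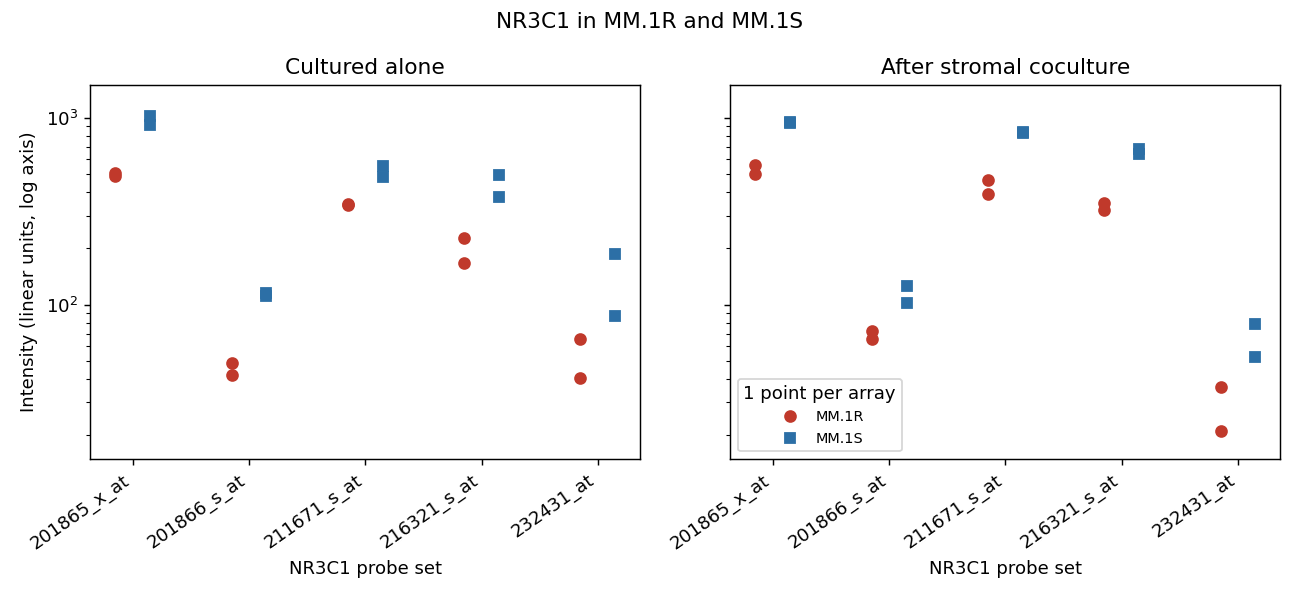
Intensity of the 5 NR3C1 probe sets on each array (log axis), MM.1R to the left of MM.1S in every pair, with culture alone in the left panel and coculture in the right panel. Each point is an array. In each of the 5 probe sets both MM.1R arrays lie below both MM.1S arrays, in both panels.

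The genes beside NR3C1 on chromosome 5 also read lower in MM.1R for the most part. Genes were put in the order of RefSeq GRCh38.p14, whose positions are not printed because no genome build is named for the arrays. Of the tested genes, 8035 with a mean intensity of at least 100 over the 8 MM.1 arrays entered. A run was a stretch where the median of 15 neighbouring genes in the coculture arrays lay more than 0.25 on the log2 scale from the median of all ordered genes. This definition was made after the values had been seen, and it used only the coculture arrays, so its members' coculture values are a description. The lowest run held 65 consecutive genes, DELE1 to UBTD2, with NR3C1 as gene 5 of the run and 60 genes after it. The only other runs were 2 neighbouring genes on chromosome 12 and 2 on chromosome 20, both higher in MM.1R in coculture.

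In the arrays that did not define the run, its genes had a median log2 difference of -0.53 between MM.1R alone and MM.1S alone. All 8035 ordered genes had a median of 0.16, so the run lay at -0.69 relative to them. The 4 pairings of an MM.1R with an MM.1S array gave -0.77 to -0.67. Of the 65 genes, 54 (83.1%) were below 0, against 3071 (38.2%) of the ordered genes and 48.6% of all genes tested. Without overlap of the arrays, 46 (70.8%) were lower, against 27.1% of the ordered genes and 27.2% of all genes tested. By the test, 11 were called lower (16.9%) and 4 higher (6.15%). Of the ordered genes 2.97% were called lower and 14.9% higher, and of all genes tested 2.6% and 9.92%. The other 325 ordered genes of chromosome 5 had a median of 0.10 alone and 0.01 in coculture. Leaving NR3C1 itself out of the run changed its median alone to -0.52.

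In coculture, where the run was defined, its median was -0.51, which is a ratio of 0.70 of MM.1R to MM.1S. There 62 of the 65 genes were below 0 (46.3% of all genes tested) and 58 did not overlap (19.5% of all genes tested). The sign was below 0 in both conditions for 51 genes, and 41 were lower without overlap in both. Just before the run, PCDH1 had a coculture difference of -0.25 and RELL2 of 0.01. Just after it, DUSP1 had 0.52 and ERGIC1 -0.52, so the far border was less sharp. Consecutive windows of 25 genes over all chromosomes were also taken. Since the run was defined on the coculture arrays, the coculture medians of the windows largely follow from that definition and are a description. The 311 windows without genes of the run had medians of -0.18 to 0.23 in coculture and -0.49 to 0.41 alone. The lowest window with genes of the run reached -0.55 in coculture, and the lowest alone -0.81. DNA copy number was not measured in these samples, and whether it differs there was not tested.

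**Figure D2:**
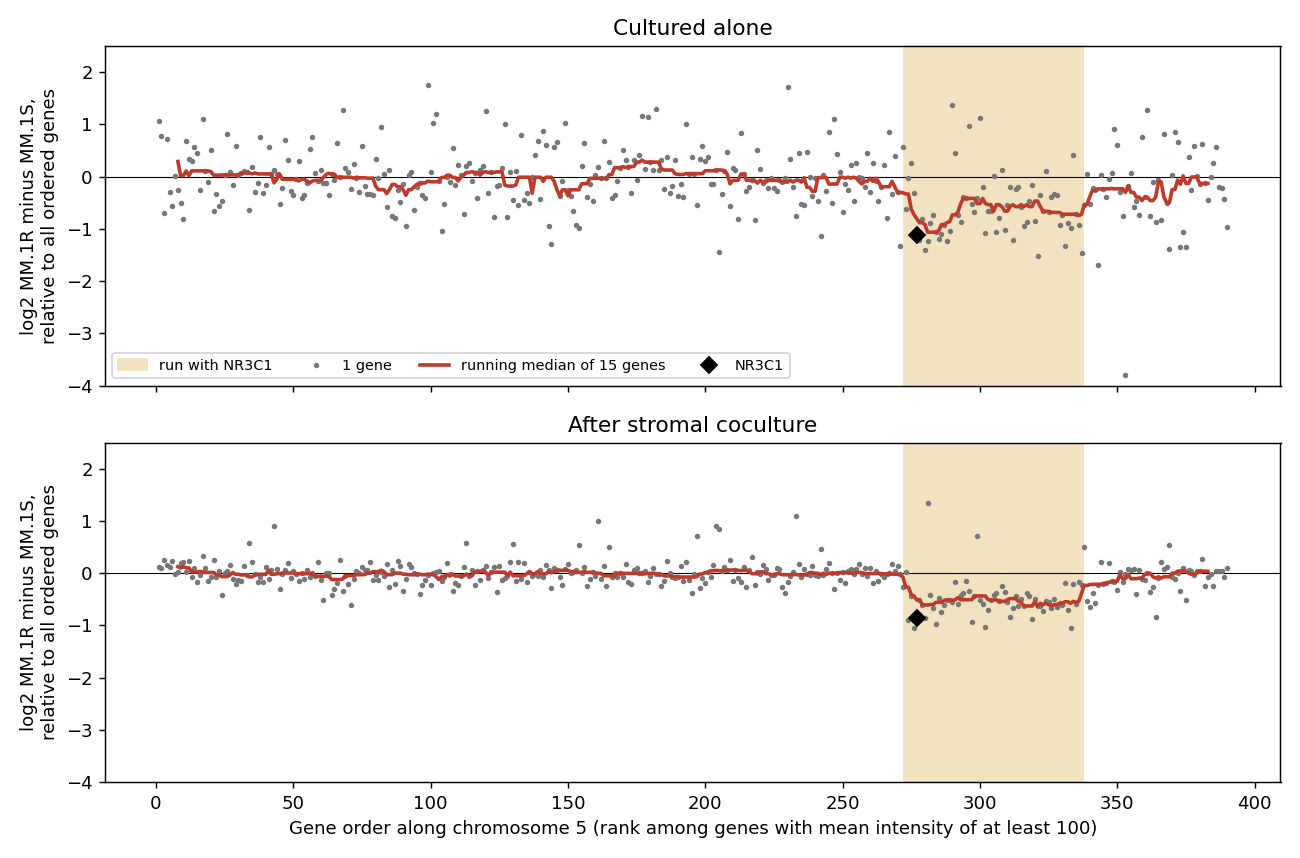
log2 difference MM.1R minus MM.1S of 390 genes in their order along chromosome 5, relative to the median of all ordered genes, cultured alone (top) and in coculture (bottom). Grey points are genes, the red line is the running median of 15 genes, the black diamond is NR3C1 and the shaded band is the run of 65 genes defined on the coculture arrays. The line lies below 0 along the band in both panels, with wider scatter alone. Outside the band it stays near 0 in coculture and varies more alone, where windows of 25 or more neighbouring genes reached medians of -0.21 and 0.28.

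Among the members of the run called lower, SLU7, a splicing factor, read 639 and 558 in MM.1R alone, against 1578 and 1514 in MM.1S alone (log2 -1.37, adjusted p = 0.00192). RBM27, an RNA-binding protein, read 346 and 303 in MM.1R alone, against 774 and 770 in MM.1S alone (log2 -1.24, adjusted p = 0.00726). CSNK1A1, the casein kinase that marks beta-catenin for degradation, read 544 and 529 in MM.1R alone, against 1102 and 1116 in MM.1S alone (log2 -1.04, adjusted p = 0.00555). All of these were also lower without overlap in coculture, by log2 differences of -0.61, -0.84 and -0.45. SPDL1, which targets dynein to kinetochores, was lower alone (log2 -1.17, adjusted p = 0.00522) and had -0.17 in coculture. YIPF5 (log2 -1.06), CLINT1 (-0.78) and LARP1 (-0.64) were also called, but each lost its call without any array of the 4 (adjusted p up to 0.114, 0.179 and 0.123). RBM27 lost its call without MM.1R alone replicate 2 (adjusted p = 0.0621, limma) and CSNK1A1 without MM.1R alone replicate 1 (0.0506), and the tested probe sets of both genes and of YIPF5 differed in sign. With the mean of all tested probe sets RBM27 had -0.59 (adjusted p = 0.154), CSNK1A1 -0.18 (0.513), YIPF5 -0.10 (0.849) and CLINT1 -0.82 (0.0559), and none of these passed. On the same mean LARP1 had the opposite sign (log2 0.14), and after quantile normalization it had -1.20.

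Members that were not called include PTTG1, the securin of sister chromatids, and LCP2, an adaptor of antigen receptor signalling. PTTG1 read 1112 and 1112 in MM.1R alone, against 1268 and 1272 in MM.1S alone, and 1423 and 1406 in MM.1R in coculture, against 2179 and 2141 in MM.1S in coculture. LCP2 read 534 and 542 in MM.1R alone, against 990.4 and 917 in MM.1S alone, and 473 and 433 in MM.1R in coculture, against 963 and 896 in MM.1S in coculture. LCP2 passed with the mean of its 5 tested probe sets (log2 -0.88, adjusted p = 0.0175), which have the same sign. The 4 members called higher in MM.1R alone were CD74, RPS14, NPM1 and ANXA6, with log2 differences of 1.52, 0.60, 0.57 and 1.13. In coculture the same genes had -0.54, -0.15, -0.19 and -0.31. CD74, the invariant chain of MHC class II, read 4544 and 4668 in MM.1R alone, against 1686 and 1519 in MM.1S alone, whereas in coculture it read 3515 and 3701 in MM.1R, against 5481 and 4992 in MM.1S. The calls of RPS14, NPM1 and ANXA6 were lost without each array (adjusted p up to 0.157, 0.138 and 0.184), and after quantile normalization RPS14 had 0.23 (adjusted p = 0.25) and NPM1 -0.18. The mean of the tested probe sets also ended both calls, with 0.37 for RPS14 and 0.22 for NPM1.

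**Figure D3:**
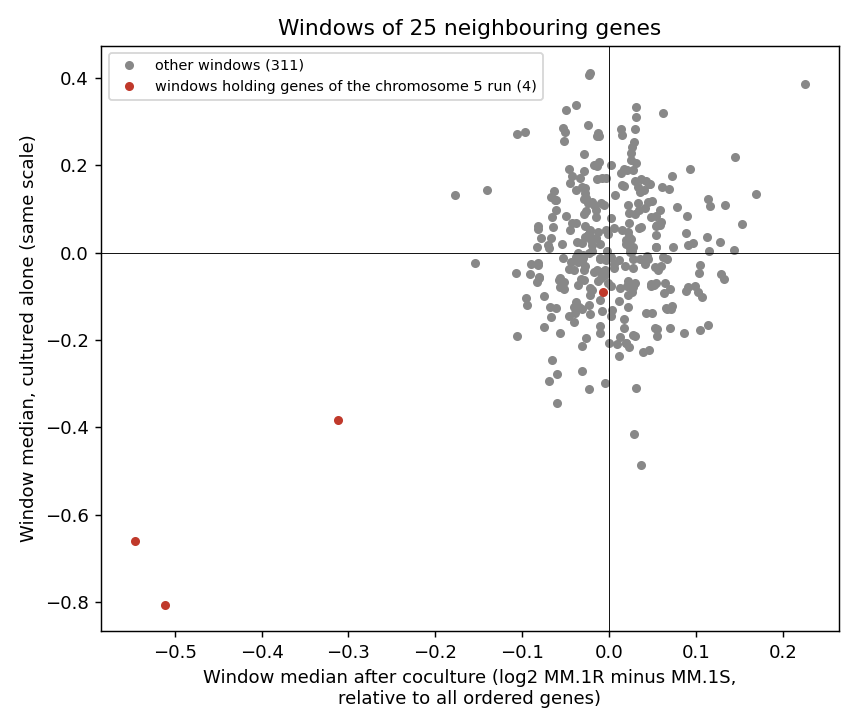
Median log2 difference MM.1R minus MM.1S of 315 windows of neighbouring genes, relative to all ordered genes, in coculture (horizontal) and alone (vertical). Red points are the 4 windows that hold genes of the chromosome 5 run. Of these, 3 lie apart at the lower left, and the fourth, with 3 genes of the run, lies among the 311 grey windows. The run was defined on the coculture arrays, so the horizontal positions are a description. On the vertical axis the windows at -0.81 and -0.66 lie below all others, while the one at -0.38 lies within the range of the 311 (-0.49 to 0.41).

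Of 14 tested members of the list of the receptor and its cofactors, 6 rose (42.9%, against 9.92% of all genes tested), NR3C1 fell and 7 did not pass. The list's median was 0.59, against 0.02 over all genes tested, and 0.18 after quantile normalization, where 5 rose and 2 fell. HSP90AB1, an HSP90 isoform, read 4463 and 4133 in MM.1R alone, against 1209 and 1203 in MM.1S alone (log2 1.83, SE 0.13, adjusted p = 0.0013). FKBP4, an immunophilin that rides on HSP90 and promotes receptor transport, read 958 and 982 in MM.1R alone, against 471 and 481 in MM.1S alone (log2 1.02, adjusted p = 0.00469). STIP1, which bridges HSP70 and HSP90, read 971 and 931 in MM.1R alone, against 388 and 396 in MM.1S alone (log2 1.27, adjusted p = 0.0109). DNAJB1, an HSP70 partner, read 659 and 653 in MM.1R alone, against 355 and 368 in MM.1S alone (log2 0.85, adjusted p = 0.0108). For all of these the arrays of the lines did not overlap. STIP1 lost its call without any array of the 4 and DNAJB1 without 3 of them (adjusted p up to 0.0865 and 0.0868). With the mean of the tested probe sets STIP1 had 0.71 (adjusted p = 0.109) and FKBP4 0.97 (adjusted p = 0.0576), and neither passed. In coculture HSP90AB1 read 4653 and 4179 in MM.1R, against 4468 and 4346 in MM.1S, so the groups overlapped, and the list's median was 0.05. The ACTB ratio and spike-in levels given above also differed between the lines alone, and their part in these values was not tested.

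Of 17 tested genes that the receptor induces, 2 rose (11.8%, near the 9.92% of all genes tested), 0 fell and 15 did not pass, with a median of 0.28. TSC22D3, known as GILZ, read 304 and 277 in MM.1R alone, against 249 and 306 in MM.1S alone, with overlapping arrays (log2 0.07, SE 0.65, adjusted p = 0.97). Its SE also holds the spread of the INA-6 alone arrays, which read 88.4 and 11.3. FKBP5, an immunophilin that lowers receptor activity, read 404 and 405 in MM.1R alone, against 259 and 265 in MM.1S alone on its brighter probe set (log2 0.62, adjusted p = 0.0186). Its other tested probe set read 222 and 257 in MM.1R alone, against 375 and 357 in MM.1S alone, which is the opposite order, and the mean of both gave a log2 difference of 0.01. BMF, a BH3-only protein of the BCL2 family, read 76.0 and 109 in MM.1R alone, against 47.7 and 39.0 in MM.1S alone (log2 0.997, adjusted p = 0.0389). The calls of BMF and FKBP5 were lost without each array (adjusted p up to 0.215 and 0.122). BCL2L11, the BH3-only protein BIM, had a log2 difference of -0.02 with overlapping arrays.

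Over all genes, 1607 of 12835 (12.5%) were called between MM.1R alone and MM.1S alone, 1273 higher (9.92%) and 334 lower (2.6%), and 3291 had an unadjusted p under 0.05. At least a 2-fold difference was reached by 636 of the higher and 145 of the lower genes. Without overlap of the arrays, 35.8% of genes were higher and 27.2% lower, so a lack of overlap between 2 and 2 arrays was common. Leaving out an array reduced the calls to 417 (without MM.1R alone replicate 1), 531 (without MM.1R alone replicate 2), 685 (without MM.1S alone replicate 1) and 937 (without MM.1S alone replicate 2). A fit on the 8 arrays of these lines called 4359. Of the 782 called genes with several tested probe sets, 463 had the same sign in all of them. Of the called genes, 47 of the 1273 higher (3.69%) read at or below the array median on both MM.1S alone arrays, and 38 of the 334 lower (11.4%) did so on both MM.1R alone arrays. These entered only through the line in which they were high, and their fold is not a measured one.

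The difference varied with how bright a gene was. Its median was uneven over 5 equal classes of genes by mean intensity, with -0.18, -0.10, 0.12, 0.10 and 0.17 in the dimmest to the brightest class, while in coculture the classes lay between 0.01 and 0.03. Quantile normalization, which gives the arrays the same distribution of intensities, called 1162 higher and 667 lower, 63.5% higher against 79.2% in the values as deposited. Centring the arrays on their medians called 1122 higher and 134 lower, 89.3% higher, and set the median of all genes at 0.13. Over all genes tested, MM.1S alone was the lowest of the 4 MM.1 groups for 41% and the highest for 36.3%, and MM.1R alone for 15.8% and 15.2%. MM.1S alone was the lowest for 1247 of the 1273 genes called higher in MM.1R alone and the highest for 307 of the 334 called lower. The call itself puts MM.1S alone beyond MM.1R alone in that direction. These counts are thus partly fixed by the selection and cannot be set against the shares over all genes. MM.1R alone arrays correlated with coculture arrays at r = 0.900 to 0.944 over all tested genes, MM.1S alone arrays at 0.800 to 0.860. These correlations are across genes, which are not independent replicates.

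The 15 largest rises and the 15 largest falls were taken only among genes whose tested probe sets all had the same sign. The rises were led by SH3BGRL3, a small protein with a thioredoxin-like fold. It read 537 and 530 in MM.1R alone, against 67.4 and 28.4 in MM.1S alone (log2 3.45, SE 0.40, adjusted p = 0.00269). CAPNS1, the small regulatory subunit of calpains, read 644 and 606 in MM.1R alone, against 77.9 and 64.2 in MM.1S alone (log2 3.05, adjusted p = 0.00441). BAX, the effector that opens the mitochondrial outer membrane in apoptosis, read 360.5 and 335 in MM.1R alone, against 47.9 and 79.6 in MM.1S alone (log2 2.40, adjusted p = 0.00259). In coculture these genes were bright in both lines. SH3BGRL3 read 1763 and 1633 in MM.1R in coculture, against 1649 and 1644 in MM.1S in coculture, and CAPNS1 read 1485 and 1455, against 1587 and 1520.2.

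ITPK1, an inositol phosphate kinase, had another pattern. It read 1493 and 1306 in MM.1R alone, against 183 and 203 in MM.1S alone (log2 2.83, adjusted p = 0.00223), and only 257 and 281 in MM.1R in coculture, against 267 and 245 in MM.1S in coculture. It was thus high on the MM.1R alone arrays only among the 8. The remaining rises were SQOR (log2 3.04), PSENEN (2.46), MRPL37 (2.42), MRPL12 (2.42), RAB7A (2.31), ZNF296 (2.30), PSME3 (2.29), ATP6V0C (2.29), JPT1 (2.27), EDEM3 (2.25) and CST3 (2.22). They include subunits of gamma-secretase (PSENEN), of the mitochondrial ribosome (MRPL37 and MRPL12) and of the vacuolar proton pump (ATP6V0C), and the late endosomal GTPase RAB7A. With the mean of the tested probe sets RAB7A had 1.26, PSME3 1.43 and EDEM3 1.28. SQOR, which oxidises sulfide in mitochondria, lost its call without 2 of the 4 arrays and RAB7A without 3 (adjusted p up to 0.0879 and 0.0597). MM.1S alone was the lowest group for all 15, which their selection as rises favours in advance.

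Among the 15 largest falls by the fit was MFSD6L, a member of a transporter superfamily. It read 3.30 and 11.1 in MM.1R alone, against 612 and 179 in MM.1S alone. Both MM.1R readings lay below the array median, so it entered only through MM.1S and no fold is given. In coculture it was at the floor of the arrays, 1.59 and 1.52 in MM.1R, against 1.33 and 1.22 in MM.1S, so it was high on the MM.1S alone arrays only, where the duplicates differed widely. SMCHD1, a chromatin protein needed for X inactivation, read 398 and 370 in MM.1R alone, against 1043 and 1054 in MM.1S alone (log2 -1.44, adjusted p = 0.00238). Its 6 tested probe sets had the same sign, which the selection of the falls required, with a mean of -0.73. CNTRL, the centrosome protein centriolin, read 467 and 457 in MM.1R alone, against 1204 and 1124 in MM.1S alone (log2 -1.32, adjusted p = 0.00326), and did not pass with the mean of its tested probe sets (-0.76, adjusted p = 0.143). LINC00324, a long noncoding RNA, read 111 and 106 in MM.1R alone, against 391 and 412 in MM.1S alone (log2 -1.84, adjusted p = 0.0013). In coculture it read 125 and 112 in MM.1R, against 166 and 168 in MM.1S, the same order without overlap.

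The other falls were H2BC12 (log2 -2.04), GJA4 (-1.90), ZNF552 (-1.85), COL24A1 (-1.74), LINC00467 (-1.45), LOC728392 (-1.42), KIFC2 (-1.41), SLU7 (-1.37), KBTBD3 (-1.33), NUTM2B-AS1 (-1.30) and ANKRD20A11P (-1.26). Several are noncoding RNAs or pseudogenes, and SLU7 lies in the chromosome 5 run. The calls of GJA4, ZNF552, COL24A1, LINC00467 and NUTM2B-AS1 were lost without each array (adjusted p up to 0.263, 0.162, 0.205, 0.233 and 0.0995). Those of H2BC12, LOC728392 and KIFC2 were lost without 3 of the 4 (up to 0.0935, 0.0755 and 0.0935). The mean of probe sets ended the calls of KIFC2 (-0.74) and LINC00467 (-0.83), and quantile normalization that of COL24A1 (adjusted p = 0.0834). MM.1S alone was the highest group for all 15, which their selection as falls favours in advance.

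**Figure D4:**
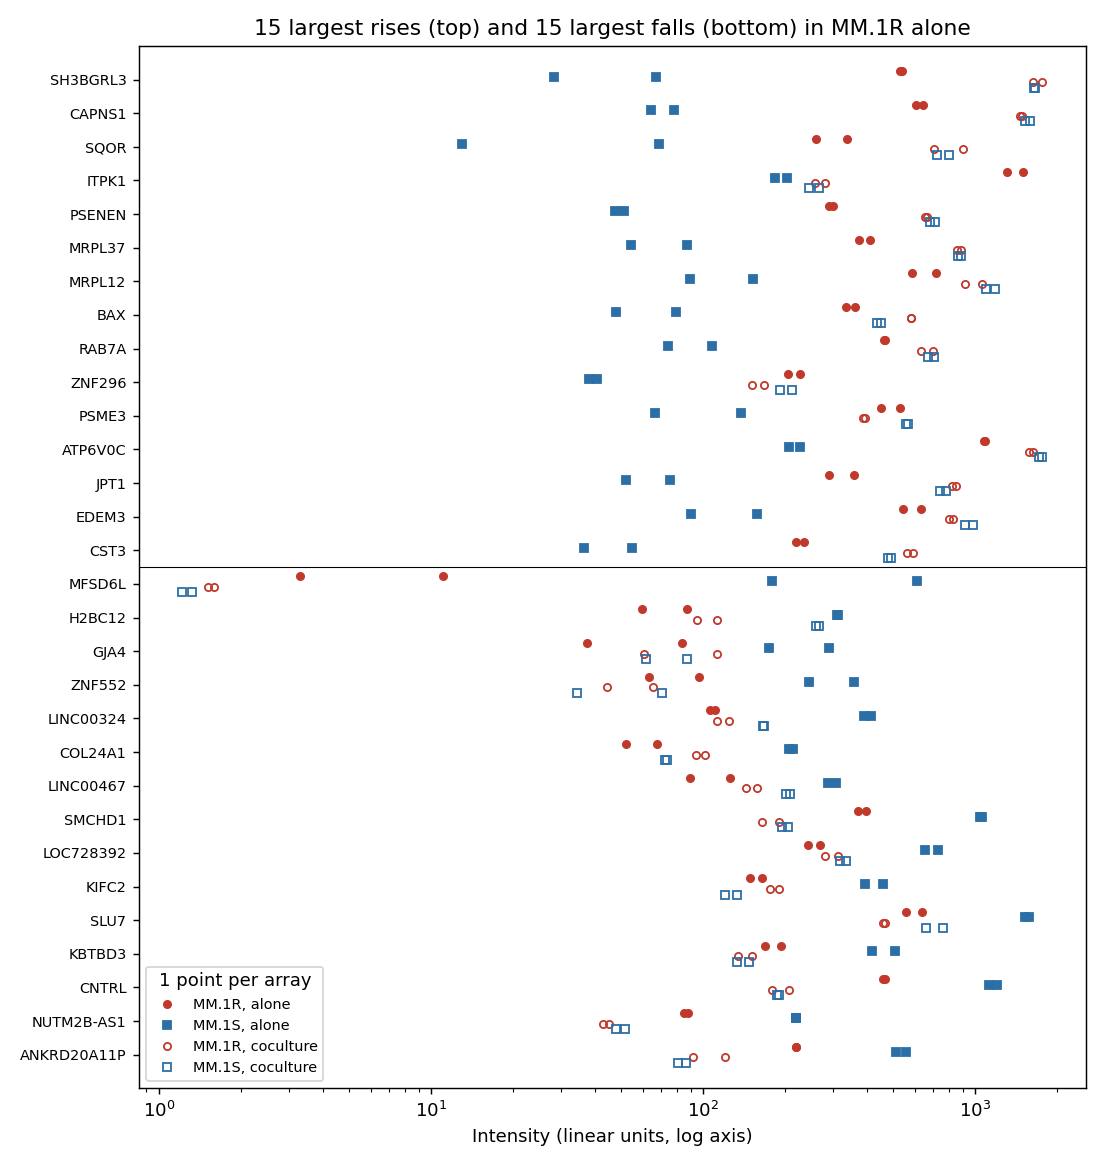
Intensity on each array (log axis) of the 15 largest rises (top) and the 15 largest falls (bottom) in MM.1R alone against MM.1S alone. Filled red circles are MM.1R alone, filled blue squares MM.1S alone, open symbols the same lines in coculture, 1 point per array. MM.1S alone has the lowest mean of the 4 groups in all 15 rises and the highest in all 15 falls. The genes were chosen by the difference of the lines alone, which favours this in advance, and only where all tested probe sets had the same sign.

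The lists of translation and respiration held the most rises. Over all genes tested 9.92% were called higher and 2.6% lower. In the brightest of the 5 classes 19.0% were called higher and 3.54% lower. Of 39 tested cytosolic ribosomal proteins, 35 rose (89.7%), 0 fell and 4 did not pass, with a median of 0.83. RPL19 read 3257 and 3356 in MM.1R alone, against 1331 and 1258 in MM.1S alone (log2 1.35, adjusted p = 0.00186), and RPL11 had a log2 difference of 1.33. After quantile normalization 12 of the 39 rose, with a median of 0.23, and in coculture the median was 0.00 in the values as deposited. Of 43 genes of the mitochondrial respiratory chain, 22 rose (51.2%), 0 fell and 21 did not pass, with a median of 0.66. UQCRC1, of complex III, read 847 and 708 in MM.1R alone, against 197 and 261 in MM.1S alone (log2 1.75, adjusted p = 0.00186). COX8A, of cytochrome c oxidase, read 1693 and 1613 in MM.1R alone, against 552 and 534 in MM.1S alone (log2 1.60, adjusted p = 0.00176). After quantile normalization 17 of the 43 rose. In coculture 4 of the 43 lay above 0, with a median of -0.12, where 42 had done so alone. Most of these transcripts are bright, and the part of brightness and of the 3′ bias in these values was not tested.

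Of 14 tested MHC class II genes, 6 rose (42.9%, against 9.92% of all genes tested), 0 fell (against 2.6%) and 8 did not pass. Their median was 0.79, and 4 rose after quantile normalization. HLA-DPB1, the beta chain of HLA-DP, read 893 and 913 in MM.1R alone, against 247 and 294 in MM.1S alone (log2 1.73, adjusted p = 0.00259). HLA-DMA, which loads peptides on class II, read 323 and 281 in MM.1R alone, against 93.0 and 95.6 in MM.1S alone (log2 1.62, adjusted p = 0.0063), a call lost without 1 of the arrays (adjusted p 0.0612). HLA-DRB1 did not pass, with a log2 difference of -0.10 and overlapping arrays. Of 18 genes of MHC class I and peptide loading, 8 rose (44.4%), 0 fell and 10 did not pass, with a median of 0.65, or 0.40 after quantile normalization. TAPBP, the tapasin of the loading complex, had a log2 difference of 1.49 and HLA-B one of 1.15, though the 3 tested probe sets of TAPBP did not all have the same sign. With the mean of probe sets TAPBP had 0.43 and did not pass (adjusted p = 0.353), HLA-B had 0.75 and HLA-DPB1 1.05. In coculture the medians were -0.08 for class II and 0.04 for class I. HLA genes, histones, metallothioneins, ribosomal proteins and immunoglobulin chains have near-identical relatives, and their probe sets may share targets.

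Genes of plasma cell identity and of myeloma were measured next. IRF4, a transcription factor on which myeloma cells depend, read 1479 and 1531 in MM.1R alone, against 520 and 620 in MM.1S alone (log2 1.40, adjusted p = 0.00542). Its dimmer tested probe set had -0.21, and the mean of the tested probe sets did not pass (log2 0.59, adjusted p = 0.0524). Of 20 tested B and plasma cell transcription factors, 4 rose, 1 fell and 15 did not pass. The shares were 20% and 5%, against 9.92% and 2.6% of all genes tested, and KLF13 had a log2 difference of 1.28. The fall was in POU2F2, an octamer-binding factor of B cells (log2 -0.90), and was lost without 1 of the arrays (adjusted p 0.0765) and with the mean of probe sets (-0.24, adjusted p = 0.391). Of 25 surface antigens, 6 rose (24%) and 0 fell, among them CD52 (log2 1.13), SDC1 (0.72) and TNFRSF17 (0.77), the receptor known as BCMA. TNFRSF17 read 2338 and 2347 in MM.1R alone, against 1317 and 1431 in MM.1S alone, and its call was lost without 3 of the 4 arrays (adjusted p up to 0.0682). SDC1, or CD138, lost its call without each array (up to 0.087). CD38 was dim, with 49.8 and 97.3 in MM.1R alone, against 146 and 81.1 in MM.1S alone, and overlapped.

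Neither MAF nor MYC passed the test, and CCND2 passed in the mean of its probe sets but not in the brightest. MAF, activated in these cells by a translocation, read 3201 and 3219 in MM.1R alone, against 2998 and 2856 in MM.1S alone (log2 0.13, SE 0.29, adjusted p = 0.85), and its sign turned after quantile normalization (-0.52). The 5 tested probe sets of MAF differed in sign. Another bright one read 860 and 867 in MM.1R alone, against 1264 and 1373 in MM.1S alone, the opposite order without overlap. CCND2, the D-type cyclin that MAF induces, read 4753 and 4524 in MM.1R alone, against 1977 and 1861 in MM.1S alone. Its arrays did not overlap, yet it did not pass (log2 1.27, SE 0.43, adjusted p = 0.105). The SE pools all groups of the series, and on the INA-6 alone arrays CCND2 read 16.8 and 62.9, and MAF 11.5 and 28.2. The part of INA-6 in these SEs was not tested. The 4 tested probe sets of CCND2 had the same sign. With their mean it passed (log2 1.12, adjusted p = 0.00812). MYC read 1362 and 1435 in MM.1R alone, against 1442 and 1390.1 in MM.1S alone, with overlap (log2 -0.02, adjusted p = 0.967). The drug efflux pump gene ABCB1 was not tested because its probe sets lay near the floor, at 1.73 to 11.1 in MM.1R alone, against 2.21 to 16.6 in MM.1S alone. Of the 20 tested genes in that list of oncogenes, cyclins and MAF targets, only MXI1, a MYC antagonist, was called (log2 1.26). That is a share of 5%, against 9.92% called higher over all genes tested.

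Among regulators of cell death, 7 of 24 tested members rose (29.2%, against 9.92% of all genes tested) and 0 fell (against 2.6%), with a median of 0.20. Beside BAX, BAD, which antagonises BCL2-like survival proteins, read 262 and 187 in MM.1R alone, against 42.1 and 60.7 in MM.1S alone (log2 2.03, adjusted p = 0.00423). PMAIP1 read 334 and 355 in MM.1R alone, against 179 and 132 in MM.1S alone (log2 1.14, limma adjusted p = 0.00685). In coculture it read 908 and 820 in MM.1R, against 498 and 458 in MM.1S, without overlap (log2 0.85, limma adjusted p = 0.388). PMAIP1 was not followed over the alternatives. The list's median in coculture was 0.11. BCL2 itself had a log2 difference of 0.13 and did not pass. Of 24 drug transporter and glutathione genes, 4 rose (16.7%, against 9.92% of all genes tested) and 0 fell. GPX1, a glutathione peroxidase, read 259 and 224 in MM.1R alone, against 56.4 and 64.5 in MM.1S alone (log2 1.91, adjusted p = 0.00172), and in coculture it read 1015 and 948 in MM.1R, against 642 and 636 in MM.1S, without overlap. GSTP1, a glutathione transferase, had a log2 difference of 1.60 and lost its call without each array (adjusted p up to 0.198).

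Genes of protein folding in the endoplasmic reticulum rose in 13 of 32 cases (40.6%), with 0 falls. Over all genes tested 9.92% were called higher and 2.6% lower, which holds for the lists below too. The folding genes were led by the oxidase ERO1A (log2 1.16, lost without 1 array with an adjusted p of 0.0723) and the disulfide isomerase P4HB (1.15). The 3 tested probe sets of P4HB differed in sign, and their mean did not pass (0.51, adjusted p = 0.0543), while that of ERO1A was 0.74. Of 36 hypoxia and glycolysis genes, 10 rose (27.8%) and 0 fell, with ALDOA at 1.19. Of 34 adhesion molecules and chemokine receptors, 10 rose (29.4%) and 0 fell, and their median was 0.05 after quantile normalization, against 0.25 as deposited. CD99, a surface glycoprotein of leukocytes, read 134 and 139 in MM.1R alone, against 29.4 and 42.8 in MM.1S alone (log2 1.80, adjusted p = 0.00441). The mean of its probe sets gave 0.9996. In coculture it read 1132 and 1120.5 in MM.1R, against 526 and 526 in MM.1S. ITGB5, an integrin beta chain, had 1.85 alone (0.99 in the mean of probe sets) and lost its call without each array (adjusted p up to 0.2). Of 48 cell cycle genes, 8 rose (16.7%) and 1, CDC6, fell (2.08%, against 2.6% of all genes tested), with CDK4 at 1.30 and PLK1 at 1.29. The fall of CDC6, a loader of the replicative helicase, was a log2 difference of -0.82 (adjusted p = 0.0344), in which its tested probe sets differed in sign, and the call was lost without each array (up to 0.187) and in the mean of probe sets (-0.10).

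The shares called in the lists of signalling and stress are set against 9.92% higher and 2.6% lower over all genes tested. Of 30 interferon-stimulated genes, 2 rose (6.67%), BST2 (log2 1.43) and ISG20 (0.58). Of 29 NF-kB genes, 3 rose (10.3%), among them LTB (1.59) and CHUK (0.78), and 1, CXCL8, was called lower (3.45%). CXCL8 read 11.5 and 14.2 in MM.1R alone, against 31.3 and 34.7 in MM.1S alone, with MM.1R below the array median, so it entered only through MM.1S and no fold is given. Of 24 genes of interleukin 6 signalling and STAT3 response, 3 rose (12.5%), with IL2RG at 1.92 and PIM2 at 0.57. Of 36 growth factor genes, 2 were called higher (5.56%), TGFBR2 (0.92) and TGFB1. TGFB1 read 92.1 and 65.7 in MM.1R alone, against 16.0 and 7.95 in MM.1S alone, both below the array median there. It entered only through MM.1R, its probe sets differed in sign, and their mean did not pass (adjusted p = 0.0543). Of 16 feedback genes of RAS-MAPK signalling, 1 rose (6.25%), DUSP5 (1.35). Of 23 cholesterol synthesis genes, 3 rose (13.0%), with PMVK at 1.23 and NSDHL at 0.93. In the list of heat-shock and immediate-early genes 5 of 25 rose (20%), among them HSP90AA1 (0.82). Of 11 immunoglobulin chains and partners, 2 rose (18.2%), IGLC1 (1.004) and JCHAIN (0.68). Of 31 chromatin regulators, 0 were called by limma, and the largest differences were KDM1A at 1.10 and KDM5B at -1.01, both with p-values above the threshold (adjusted p = 0.153 and 0.32). The calls of ISG20, IL2RG, PIM2, DUSP5, JCHAIN and CXCL8 were lost without each array (adjusted p up to 0.174, 0.137, 0.182, 0.11, 0.0978 and 0.218), and those of LTB, CHUK, TGFBR2 and NSDHL without 3 of the 4 (up to 0.114, 0.184, 0.111 and 0.129). HSP90AA1 lost its call without 2 (up to 0.0661). After quantile normalization 0 of the 11 immunoglobulin genes were called, with IGLC1 at 0.27 (adjusted p = 0.215). JCHAIN and PIM2 had the opposite sign there, -0.06 and -0.12, and HSP90AA1 did not pass (0.08, adjusted p = 0.721).

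**Figure D5:**
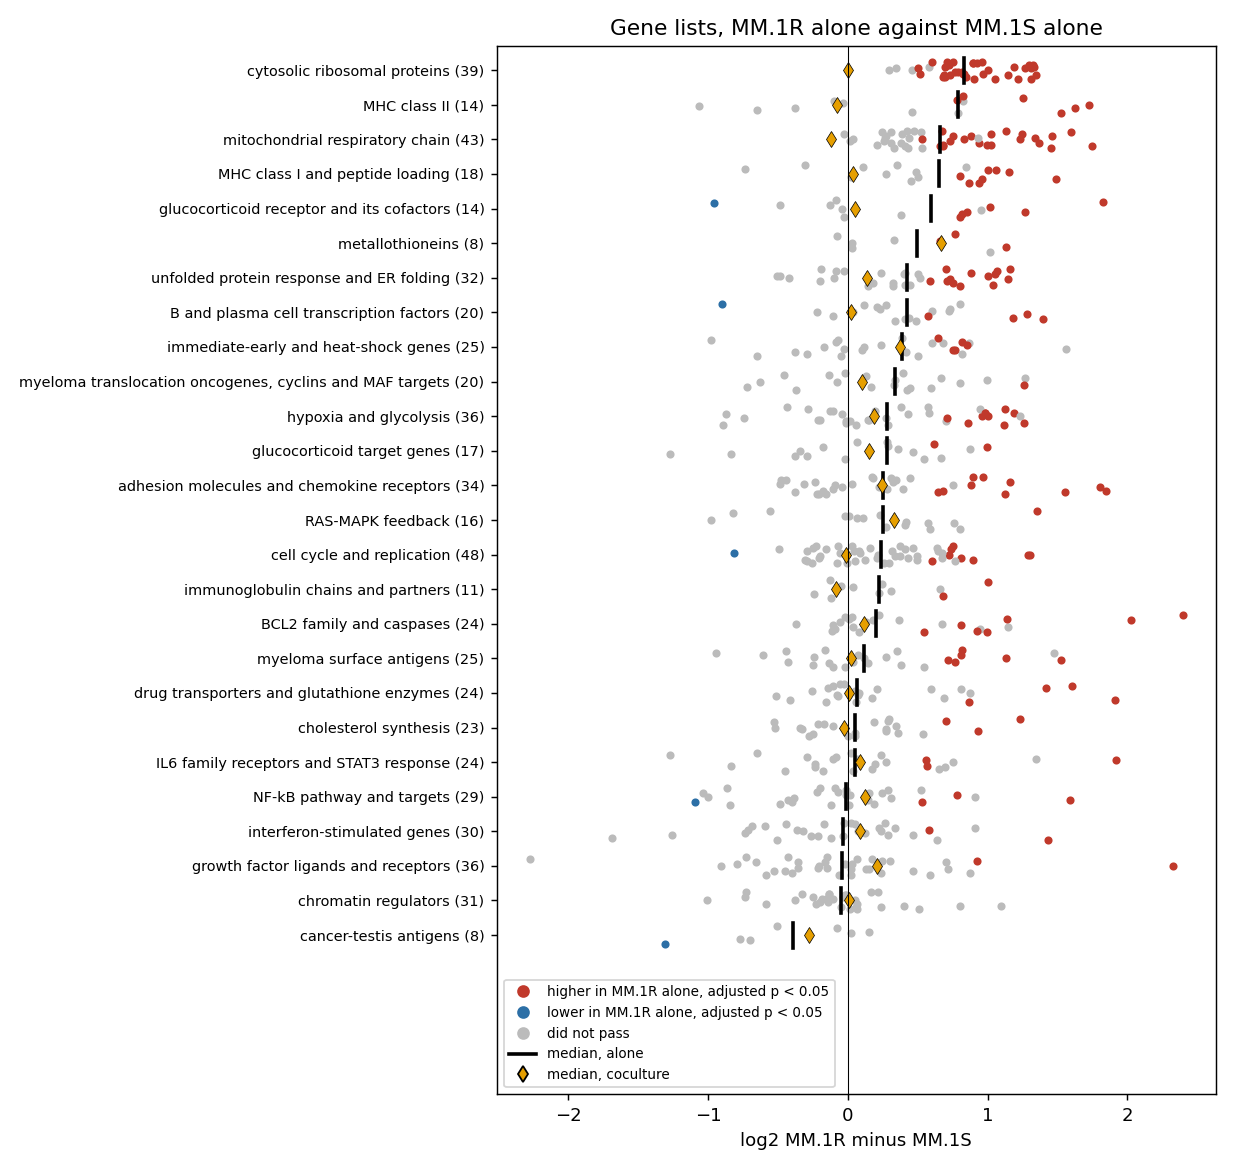
log2 difference MM.1R alone minus MM.1S alone of the tested members of 26 gene lists, number of members in brackets. Red points passed as higher and blue points as lower, grey points did not pass, the black bar is the median alone and the orange diamond the median in coculture. Cytosolic ribosomal proteins have the highest median alone (0.83), and cancer-testis antigens the lowest (-0.39).

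The coculture arrays returned few of these differences. Between MM.1R and MM.1S in coculture, limma called 0 of 12835 genes (0%), with 453 at an unadjusted p under 0.05 and a smallest adjusted p of 0.0664. Without overlap of the arrays, 26.7% of genes were higher there and 19.5% lower. Of the 1273 genes called higher alone, 682 were above 0 in coculture, and of the 334 called lower, 151 were below 0. Their median coculture differences were 0.01 and 0.01. The test of the difference of differences called 508 genes (3.96%), of which 490 were among the 1607 called alone. The count fell to 0 with the replicate number as a block, with no filter on low values, or without either MM.1R alone array or any coculture array. It was 4 without MM.1S alone replicate 1 and 190 without MM.1S alone replicate 2. Across genes, the differences alone and in coculture had a Pearson correlation of 0.023. In coculture the sorted cells also carried stromal transcripts at the unequal levels given above, whose part in the differences was not tested, and fewer cells of a type and less RNA per cell cannot be told apart.

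In both conditions, a difference of at least 2-fold in the same direction, without overlap and with a mean of at least 200 in the higher group, was seen for 4 genes. Another 2 genes met the same limits with opposite directions. They were BCAT1 (-1.22 alone, 1.11 in coculture) and JAKMIP2-AS1 (-1.06 alone, 1.37 in coculture), the latter a member of the chromosome 5 run and its highest value in coculture. This selection was made after the values had been seen. H2BC12, a histone H2B gene, read 59.5 and 87.3 in MM.1R alone, against 312 and 311 in MM.1S alone. In coculture it read 112 and 94.6 in MM.1R, against 265 and 259 in MM.1S, so MM.1R was low in all 4 of its arrays. H1-2, a linker histone gene, read 109 and 85.8 in MM.1R alone, against 237 and 221 in MM.1S alone (log2 -1.20, adjusted p = 0.035, lost without each array, up to 0.184). In coculture it read 127 and 85.9 in MM.1R, against 921 and 933 in MM.1S (log2 -3.09, adjusted p = 0.0664), the smallest p there. The MM.1S coculture arrays were the highest of the 8 and the 4 MM.1R arrays the lowest.

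LHX8, a homeobox transcription factor, read 229.7 and 198 in MM.1R alone, against 74.8 and 99.8 in MM.1S alone (log2 1.26, adjusted p = 0.0939). The INA-6 alone arrays, whose spread enters the same test, read 176 and 62.0 for this gene. In coculture it read 204 and 197 in MM.1R, against 71.7 and 73.1 in MM.1S. Both MM.1R groups were thus high and both MM.1S groups low. RNA45SN5, the precursor of ribosomal RNA, read 906 and 776 in MM.1R alone, against 255 and 323 in MM.1S alone (log2 1.53, adjusted p = 0.00389), and 500.0 and 416 in MM.1R in coculture, against 209 and 227 in MM.1S in coculture.

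Below these limits of brightness, CTAG2, a cancer-testis antigen gene, read 52.7 and 33.3 in MM.1R alone, against 118 and 106 in MM.1S alone (log2 -1.31, adjusted p = 0.00785, lost without 2 of the 4 arrays, up to 0.0551). In coculture it read 54.5 and 45.0 in MM.1R, against 216 and 195 in MM.1S, again without overlap. It was the only call (12.5%, against 2.6% called lower over all genes tested) among 8 tested cancer-testis antigens. Of 8 tested metallothioneins, 3 were called higher alone (37.5%, against 9.92% over all genes tested). MT1X read 141 and 140 in MM.1R alone, against 85.7 and 75.5 in MM.1S alone (log2 0.77, adjusted p = 0.0113, lost without 3 of the 4 arrays, up to 0.0928), and MT1HL1 was called as well but read below the array median in MM.1S alone, so no fold is given. In coculture MT1X read 1506 and 1646 in MM.1R, against 717 and 685 in MM.1S, where the stromal marker sum was higher in MM.1R too.

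Of the 4 genes that met the limits above in both conditions, the histone genes H1-2 and H2BC12 were the falls, and both lie on chromosome 6 in the histone gene region. For that reason their promoters are printed. They are the 250 bases before the transcription start in RefSeq GRCh38.p14, 5′ to 3′ on the gene's strand (minus for both), H1-2 at chr6:26056471-26056720 and H2BC12 at chr6:27146859-27147108, which is 1 of the starts listed for that gene. Capitals mark the CCAAT motif, the TATA box motif TATAAA and the motif AAACACA (the H1 box of linker histone genes), each searched on both strands, where neighbouring or overlapping matches run together.
H1-2: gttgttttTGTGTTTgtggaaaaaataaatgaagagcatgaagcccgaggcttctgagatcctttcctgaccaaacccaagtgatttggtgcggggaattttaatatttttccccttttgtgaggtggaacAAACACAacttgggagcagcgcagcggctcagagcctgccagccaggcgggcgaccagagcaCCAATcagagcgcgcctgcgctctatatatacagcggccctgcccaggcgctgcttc
H2BC12: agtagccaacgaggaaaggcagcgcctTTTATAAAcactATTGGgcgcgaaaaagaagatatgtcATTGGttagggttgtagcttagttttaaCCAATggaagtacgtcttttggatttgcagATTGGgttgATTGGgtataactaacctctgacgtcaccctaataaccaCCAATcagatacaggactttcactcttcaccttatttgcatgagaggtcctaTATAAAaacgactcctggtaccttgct
H1-2 held 1 match to the CCAAT motif, 0 to the TATA box motif and 2 to the H1 box. H2BC12 held 6 matches to the CCAAT motif, 3 to the TATA box motif and 0 to the H1 box. Of the 35116 promoters in the table, 32% hold the CCAAT motif, 10.7% the TATA box motif and 4.82% the H1 box in the same window. A match is a description of the letters and says nothing of what binds there.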

How the data were processed

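RNA of 3 myeloma lines (MM.1S, MM.1R and INA-6) was hybridised to 12 Affymetrix arrays (U133 Plus 2.0), 2 per group in 6 groups, grouped by title. The deposited values are a probe set intensity on a linear scale. Per the submitters' processing notes they come from MAS5, while the series' design text names dChip with averaged duplicates, although the table holds 12 separate columns. No version or scaling step is given in the sources used here. From these values log2(intensity + 5) was computed without further scaling. A probe set entered when it exceeded its own array's median on at least 2 of the 4 arrays of MM.1R alone and MM.1S alone, control probe sets left out, and each gene was represented by the entering probe set with the highest mean over these arrays. Of 54675 probe sets, 41097 had 1 gene symbol in the platform annotation, 1801 had several and 11776 none, and 22776 with 1 symbol entered. All groups were fitted together in limma 3.58.1 (R 4.3.3), with Benjamini-Hochberg adjustment over 12835 genes, for the lines alone, the lines in coculture and the difference of these differences. The fit was tested on simulated data. The small number of arrays limits the precision, and since the labels call the duplicates technical, the spread between cultures is not in any test.

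Named genes included the 15 largest rises and 15 largest falls among the called genes that met each of the following limits. A gene needed a mean of at least 200 in the higher group, no overlap of the arrays and the same sign in all its tested probe sets. The others were NR3C1, up to 4 members each way of every list, and genes singled out after their values were seen. Those singled out were H1-2, LHX8, RNA45SN5, CDC6, CXCL8, POU2F2, BCL2, BCL2L11, HLA-DRB1 and members of the chromosome 5 run. The members and lists were chosen with earlier results of these data known. Deviations of the replicate 1 arrays of MM.1R alone and MM.1S alone from their group means correlated at -0.554, so the replicate numbers do not pair the lines, while within a line they correlated across the conditions at 0.487 (MM.1S) and 0.642 (MM.1R). The alternatives were other pseudocounts, filters, scalings, subsets of arrays, the mean of probe sets, the replicate number as a block and each array left out. Promoter letters and gene order came from RefSeq GRCh38.p14.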

Additional observations from a re-analysis of the deposited data

Results flagged for a closer look

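The difference between MM.1R and MM.1S changed with coculture for 42 of the 109 named genes followed over the alternatives (limma interaction term, largest adjusted p = 0.0491). Values are the log2 difference alone minus that in coculture, and all of these calls rest on a count that fell to 0 with the replicate block. Above 0 were 35 genes. Among the largest rises these were SH3BGRL3 at 3.41, CAPNS1 at 3.13, PSME3 at 2.81, ITPK1 at 2.76, ZNF296 at 2.64, MRPL12 at 2.62, PSENEN at 2.54, EDEM3 at 2.46, MRPL37 at 2.43, ATP6V0C at 2.4, JPT1 at 2.14, BAX at 2.01 and CST3 at 1.97. In antigen presentation and plasma cell genes they were CD74 at 2.06, HLA-DPB1 at 1.84, TAPBP at 1.54, CD52 at 1.24, KLF13 at 1.19, HLA-B at 1.01 and IGLC1 at 1. In chaperones, respiration and translation they were HSP90AB1 at 1.83, FKBP4 at 0.96, UQCRC1 at 1.71, COX8A at 1.63, RPL19 at 1.39 and RPL11 at 1.34. The others were TGFB1 at 2.45, H1-2 at 1.89, PLK1 at 1.64, BST2 at 1.34, GPX1 at 1.3, NSDHL at 1.26, PMVK at 1.26, CDK4 at 1.15 and ALDOA at 1.14. H1-2 differs from the rest in that MM.1R was lower in both conditions and by more in coculture.

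Below 0 were 7 genes, all among the largest falls alone: MFSD6L at -4.93, KIFC2 at -1.93, ANKRD20A11P at -1.57, LINC00324 at -1.36, CNTRL at -1.36, KBTBD3 at -1.35 and SMCHD1 at -1.27. The values of MFSD6L and TGFB1 are no measured folds, since MFSD6L read below the array median in MM.1R alone and TGFB1 did so in MM.1S alone. With 2 arrays a group, no array was tested as standing apart within its group.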

How the results depend on the processing

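NR3C1 kept its direction and its call under all alternatives run, with log2 differences of -1.21 to -0.85, and of -1.04 to -0.88 when an array was left out. The median of the chromosome 5 run alone stayed between -0.72 and -0.68 without each array and was -0.56 with the mean of probe sets. Its coculture median was -0.56 to -0.50 without each array. The count of genes called alone was 417 to 937 without each array, 1035 with no filter on low values (19775 genes tested) and 4359 in a fit on the 8 arrays. In coculture the count was 0, 15 with a pseudocount of 20, 1 after quantile normalization, 3 in the fit on 8 arrays and 0 without each array. The count for the difference of differences was 0 to 190 without each array, 0 with no filter, 307 with the filter over all 12 arrays, 47 after centring on medians, 335 with the mean of probe sets and 2744 in the fit on 8 arrays. The causes of these shifts were not tested.

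With the replicate number as a block, the counts were 1294 alone, 1 in coculture and 0 for the difference of differences, and the adjusted p of NR3C1 was 0.0116 (limma). The crossed pairing, chosen after seeing the data because same-numbered arrays deviated in opposite ways, gave 1677, 0 and 404.

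Of 92 further called genes that were followed, 39 stayed called under every alternative. Leaving out an array ended 43, 39, 35 and 27 calls among the genes followed, and the mean of probe sets 18. Signs turned after quantile normalization for JCHAIN (-0.0565), PIM2 (-0.12), TSC22D3 (-0.0614), MAF (-0.52) and NPM1 (-0.18). They turned after centring on medians for MYC (0.0915), BCL2L11 (0.0931) and HLA-DRB1 (0.0091), and with the mean of probe sets for MAF (-0.10), LARP1 (0.14), BCL2L11 (0.40) and BCL2 (-0.0767). Leaving out each array in turn gave -0.075 to 0.2136 for TSC22D3, -0.0561 to 0.0195 for MYC and -0.1891 to 0.1557 for BCL2L11. The sign turned for MYC and BCL2L11 without replicate 1 of either line and for TSC22D3 without MM.1S alone replicate 1. Of these, only JCHAIN, PIM2, NPM1 and LARP1 had been called. Values of dim probe sets near the array median are uncertain too, and how the certainty varies with brightness was not tested.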
